A study of Rattus norvegicus with 98 samples.

Results

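The dorsal dentate gyrus (dorDG) was compared with the ventral dentate gyrus (venDG) on the H3K27ac peak lists of 8 libraries, chosen as all libraries of either subregion among the 94 of 25 rat brain regions that have a list. Each subregion had 4 libraries, namely replicates 1 and 2 of Sham and of FT. FT rats drank fluoxetine, a blocker of serotonin reuptake, at 18 mg/kg for 6 weeks and Sham rats drank water. Males of the Long-Evans strain, 2 months old per the labels and without a stress model, were used in both groups. The tissue came from micropunches pooled over several animals, so a library describes a mixture of cells and fewer cells of a type cannot be told apart from less acetylation per cell. Separate pools stand behind replicates 1 and 2, and p-values measure the spread between 8 such libraries and not between animals.

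H3K27ac is an acetylated histone residue that marks active promoters and enhancers, and the set of acetylated enhancers differs between cell types. The dentate gyrus is the entry station of the hippocampus, built mostly of granule cells, with mossy cells and inhibitory neurons in the hilus beneath them. Its dorsal pole is known mainly for spatial memory and its ventral pole for anxiety and stress responses, and neurons continue to be born in both. Fluoxetine is known to act on this structure, including on the birth and maturation of granule cells. The comparison asks where the dorsal and the ventral pole differ in acetylation, and whether fluoxetine widens or narrows that difference.

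The lists held 45025 and 44053 peaks in dorDG Sham, 49854 and 51458 in dorDG FT, 43874 and 45082 in venDG Sham, and 34769 and 48438 in venDG FT (chromosomes 1 to 20 and X, replicates 1 and 2). The list of venDG FT replicate 1 was thus the shortest of the 8, and its peaks were also the narrowest. Every list was cut to its 34769 peaks with the highest maxScore, the peak caller's best score within a peak, so that list length could not make a difference. At that cut the −log10 p-value of the last peak was 4 in venDG FT replicate 1 and between 5.61 and 8.56 in the other lists, so the weakest peaks of this library were weaker than those of the rest. Its part was measured by repeating results without it, and these values stand beside the main ones. The sequencing depth of the libraries is unknown. No Rn5 annotation was used here, so loci are given by position without gene names, and the tissue could not be checked against marker genes.

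On average, libraries of the same subregion resembled each other more than libraries of different subregions. Similarity was the Jaccard index, the number of 1 kb windows occupied in both lists divided by those occupied in either, with a window occupied when peaks covered at least 50% of it. The index averaged 0.719 ± 0.0517 (SD) over the 6 pairs within dorDG, 0.685 ± 0.0431 over the 6 pairs within venDG and 0.619 ± 0.0429 over the 16 dorsal-ventral pairs. The ranges overlapped, since the highest dorsal-ventral pair (0.678) lay above the lowest pair within dorDG (0.665) and within venDG (0.646). For 8 of 8 libraries the nearest list was one of the same subregion, also across treatments: dorDG Sham replicate 2 was closest to dorDG FT replicate 2 (0.732), and venDG Sham replicate 2 to venDG FT replicate 2 (0.754). Same-subregion pairs exceeded dorsal-ventral pairs by 0.0829 (exact permutation test over libraries, two-sided, p = 0.0286, the smallest that 4 against 4 allow). Without venDG FT replicate 1 the excess was 0.0862 (exact permutation p = 0.0286). With dorsal and ventral libraries of the same treatment and replicate number taken as pairs, the exact permutation p was 0.125, which is the smallest that 4 pairs allow, so the call cannot be made in that form.

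Windows occupied in every list were the largest class, and those that separated the subregions completely were more often dorsal. Of 100553 windows occupied in at least 1 of the 8 lists, 35264 (35.1%) were occupied in all 8. Windows occupied in 4 of 4 dorDG and 0 of 4 venDG lists numbered 2444 (2.43%), and the reverse held for 742 (0.738%), which made 3186 (3.17%) together. Such a window cannot pass an adjustment over all windows, since its adjusted Fisher p is 0.902, and the counts are therefore descriptions. Leaving out venDG FT replicate 1 gave 2652 dorDG-only and 1413 venDG-only windows, and leaving out dorDG Sham replicate 1 gave 4490 and 1142, so the dorsal surplus was present in both but its size moved with single libraries. With lists cut to equal covered length in place of equal number the counts were 1767 and 1082, and with peaks reduced to their centres 1026 and 591, so the surplus was smaller where dorDG lists did not cover more bases. The venDG-only count was also moved over 1.5 times by leaving out venDG Sham replicate 1, to 1182.

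**Figure D1:**
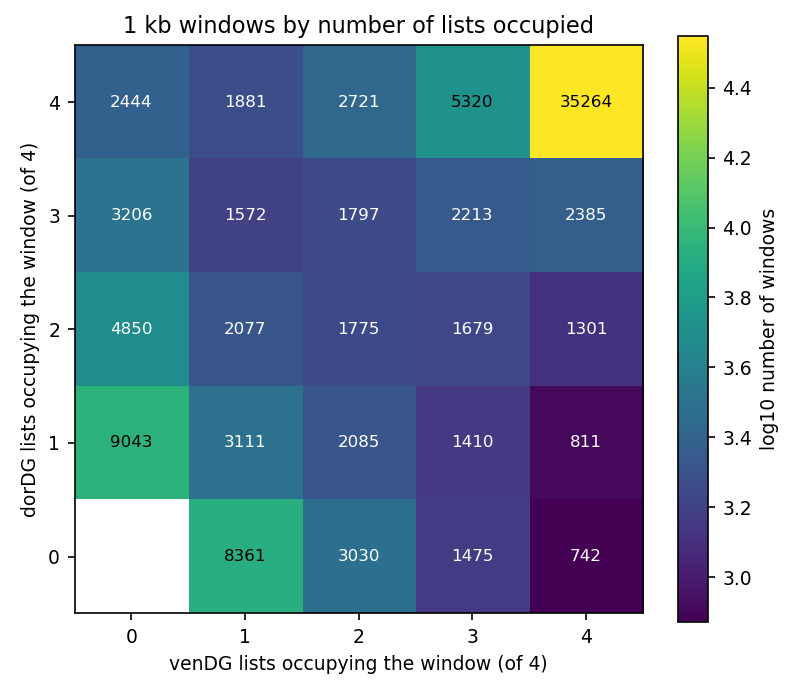
Number of 1 kb windows by how many of the 4 dorDG lists (vertical axis) and how many of the 4 venDG lists (horizontal axis) occupied them, with colour as log10 of the count. The shared corner holds 35264 windows, the dorDG-only corner 2444 and the venDG-only corner 742.

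The windows of either kind were mostly weak or middling peaks, whereas windows occupied in all 8 lists held strong peaks. The median rank by maxScore was 20672 for peaks in dorDG-only windows, 24514 in venDG-only windows and 9740 in windows occupied in all 8 lists, where 1 is the best peak and 34769 the last. Among the 10000 best peaks, 10.3% of dorDG-only and 1.75% of venDG-only windows were found. On the uncut lists, 1692 (69.2%) of the dorDG-only windows were still empty in all venDG lists, but only 266 (35.8%) of the venDG-only windows were still empty in all dorDG lists. These shares depend on list length, since the uncut list of venDG FT replicate 1 adds no peak and the other 7 lists do, and they do not compare the subregions. For 370 (15.1%) of the dorDG-only windows and 34 (4.58%) of the venDG-only windows, every list of the other subregion had a peak in the same stretch of joined peaks, so that these windows were part of a stretch that both subregions had acetylated.

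The windows were scattered over the genome. Adjoining windows joined into 2012 dorDG-only and 670 venDG-only loci, of which 1592 (79.1%) and 598 (89.3%) were single windows. The longest dorDG-only loci had 3 windows (12 loci) and the longest venDG-only loci had 2 (72 loci). By chromosome, dorDG-only windows made up from 1.34% (chromosome 20) to 3.31% (chromosome 15) of the occupied windows, and venDG-only windows from 0.505% (chromosome X) to 1.01% (chromosome 13). The densest 1 Mb stretches for dorDG were chromosome 10 from 7000001 to 8000000, chromosome 14 from 85000001 to 86000000 and chromosome 15 from 64000001 to 65000000, with 13 windows each against a median of 2 in stretches that had any. For venDG they were chromosome 13 from 55000001 to 56000000 with 7 windows, chromosome 12 from 8000001 to 9000000 with 6 and chromosome 3 from 118000001 to 119000000 with 5.

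The best-placed of the long dorDG-only loci lay on chromosome 3 from 88277001 to 88280000 (Rn5). Its peak ranked 11980.5 and 11655 in dorDG Sham and 8063 and 5801 in dorDG FT, and the equal-size venDG lists had none of the 3 windows. On chromosome 7 from 39658001 to 39661000 the dorDG ranks were 15809.5 and 9175 in Sham and 9748 and 9117.5 in FT. Both loci were occupied in a few other regions, the first with at least 1 window in all libraries of NaCcore (accumbens core) and PVN (paraventricular nucleus of the thalamus) and the second in all of LC (locus coeruleus) and PAG (periaqueductal grey). By contrast, 5 of the 10 best-ranked of these long dorDG-only loci had no occupied window in any of the 86 libraries of other regions. They lay on chromosome 16 from 68077001 to 68080000, on chromosome 2 from 99688001 to 99691000, on chromosome 7 from 66578001 to 66581000 and from 92561001 to 92564000, and on chromosome 10 from 7332001 to 7335000. At the first of these the rank was 23741 and 16750.5 in Sham and 9805 and 12384.5 in FT. The remaining 3 of the 10 lay on chromosome 11 from 34834001 to 34837000, chromosome 13 from 62384001 to 62387000 and chromosome 18 from 59828001 to 59831000, and were occupied in 14 to 23 other libraries. On uncut lists the loci of chromosome 16, of chromosome 10 and of chromosome 7 from 92561001 were still empty in every venDG list. The others were occupied in 1 or 2 uncut venDG lists.

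The best-placed venDG-only locus lay on chromosome 19 from 66635001 to 66637000. It ranked 12537.5 and 8518 in venDG Sham and 6230.5 and 10526 in venDG FT. On chromosome 3 from 14456001 to 14458000 the venDG ranks were 15735.5 and 10283 in Sham and 11081.5 and 7415 in FT, and 59 libraries of other regions occupied its more widely shared window. The 10 best-ranked of the 72 long venDG-only loci were all occupied elsewhere, in 14 to 80 of the 86 other libraries by the same count. The most widely occupied was chromosome 10 from 57415001 to 57417000, present in 80 libraries of all 23 regions and in none of the 4 equal-size dorDG lists. Of the uncut dorDG lists, however, 2 occupied it. Each of the 10 named venDG-only loci was occupied in 1 to 3 of the 4 uncut dorDG lists, so none stayed fully separate there. The other 7 lay on chromosome 6 from 52192001 to 52194000 and from 55164001 to 55166000, chromosome 3 from 118565001 to 118567000 and from 11640001 to 11642000, chromosome 7 from 123783001 to 123785000, chromosome 8 from 49314001 to 49316000 and chromosome 2 from 163740001 to 163742000.

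That contrast held for the whole sets: dorDG-only windows were rarely acetylated elsewhere in the brain, and venDG-only windows were acetylated there far more often. A dorDG-only window was occupied in a median of 0 of 23 other regions and a venDG-only window in a median of 15. Counted by single libraries, the medians were 0 and 38 of 86. The libraries of a region occupied 45.1% of the venDG-only windows on average. A typical venDG-only window was thus present in many regions but not in most libraries. No other library occupied 1280 (52.4%) of the dorDG-only windows, against 16 (2.16%) of the venDG-only windows. At least 12 of the 23 regions occupied 130 (5.32%) dorDG-only and 493 (66.4%) venDG-only windows. For comparison, windows occupied in all 8 dentate lists were occupied in a median of 23 regions and 80 libraries. Of the 86 other libraries, 85 occupied a larger share of the venDG-only than of the dorDG-only windows. HB (habenula) Sham was the exception, a library that stands apart from all others of the series. It occupied 0.309% of the windows occupied in all 8 dentate lists, against 37.6% or more in every other library. It was kept in the counts over libraries and in the means over regions.

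The regions that shared most venDG-only windows were amygdala and cortex. CMA (centromedial amygdala) occupied 75.3% ± 3.49 of them (SD, n = 4 libraries), InsularCortex 73.4% ± 0.616, CGC (cingulate cortex) 70.6% ± 5.71 and BLA (basolateral amygdala) 61.3% ± 10.9. Of the dorDG-only windows the same regions occupied 6.32% ± 2.59, 8.41% ± 0.461, 5.64% ± 1.66 and 5.66% ± 3.27. PAG had the largest share of dorDG-only windows, at 9.56% ± 2.07, and still held 30.2% ± 5.12 of the venDG-only windows. Without venDG FT replicate 1 the mean over regions was 5.86% of dorDG-only and 44.1% of venDG-only windows, against 5.57% and 45.1% with it. Of the other lists, 21 were shorter than the equal-size lists and entered at their full length.

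**Figure D2:**
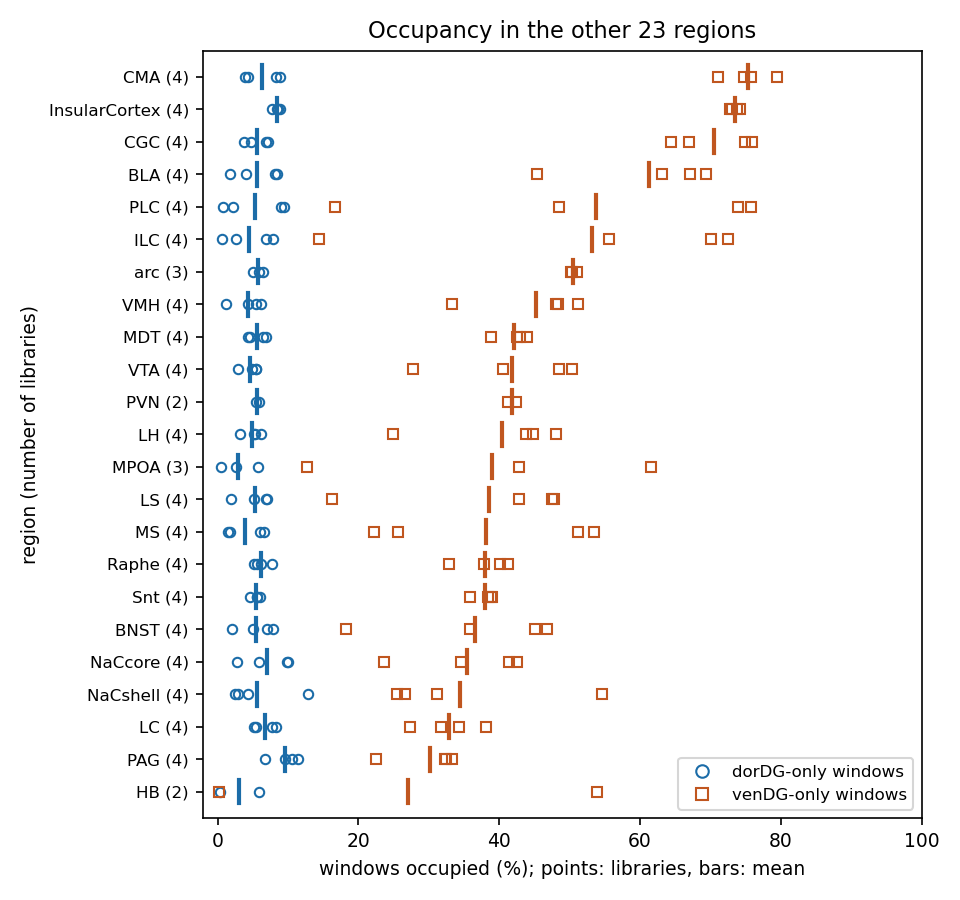
Share of the 2444 dorDG-only windows (circles) and of the 742 venDG-only windows (squares) occupied in each library of 23 other regions (points, with bars for the mean of a region; the number of libraries stands in parentheses). The dorDG-only windows stay below 15% in every library, while the venDG-only windows reach 75.3% on average in CMA.

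As whole lists, too, venDG lay nearer to the other regions. The mean Jaccard index with the 23 regions was 0.475 and 0.452 in dorDG Sham, 0.412 and 0.417 in dorDG FT, 0.529 and 0.489 in venDG Sham, and 0.461 and 0.495 in venDG FT (replicates 1 and 2). The ventral library was the nearer one in 4 of 4 pairs of the same treatment and replicate number, although the ranges of the subregions overlap. CMA shared an index of 0.604 ± 0.0127 (SD, n = 4) with venDG and 0.518 ± 0.0117 with dorDG. Its likeness to venDG was thus close to that between dorDG and venDG themselves (0.619). Micropunches of venDG and of the amygdala or cortex could share cells or cell types, which was not tested.

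Peak width did not separate the subregions at the level of whole lists. The median width of equal-size lists was 1800 bp in both dorDG Sham libraries, 2000 and 1900 bp in dorDG FT, 1700 and 1800 bp in venDG Sham, and 1400 and 1900 bp in venDG FT. Means were 1875 ± 95.7 bp (SD, n = 4) in dorDG and 1700 ± 216 bp in venDG (exact permutation test, two-sided, p = 0.286). Covered length was 65.9 ± 3.00 Mb in dorDG and 59.5 ± 6.17 Mb in venDG (exact permutation p = 0.114). Peaks of at least 3 kb made up 2.31% ± 0.458 and 1.49% ± 0.584 (exact permutation p = 0.0857). Uncut lists held 47598 ± 3614 and 43041 ± 5843 peaks (exact permutation p = 0.2). After Benjamini-Hochberg adjustment over these 4 measures the exact p-values were 0.229 to 0.286. Without venDG FT replicate 1 the dorDG means stayed above the venDG means by smaller amounts, for example by 75 bp in median width and 3.59 Mb in covered length, with exact permutation p-values of 0.171 to 0.486.

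**Figure D3:**
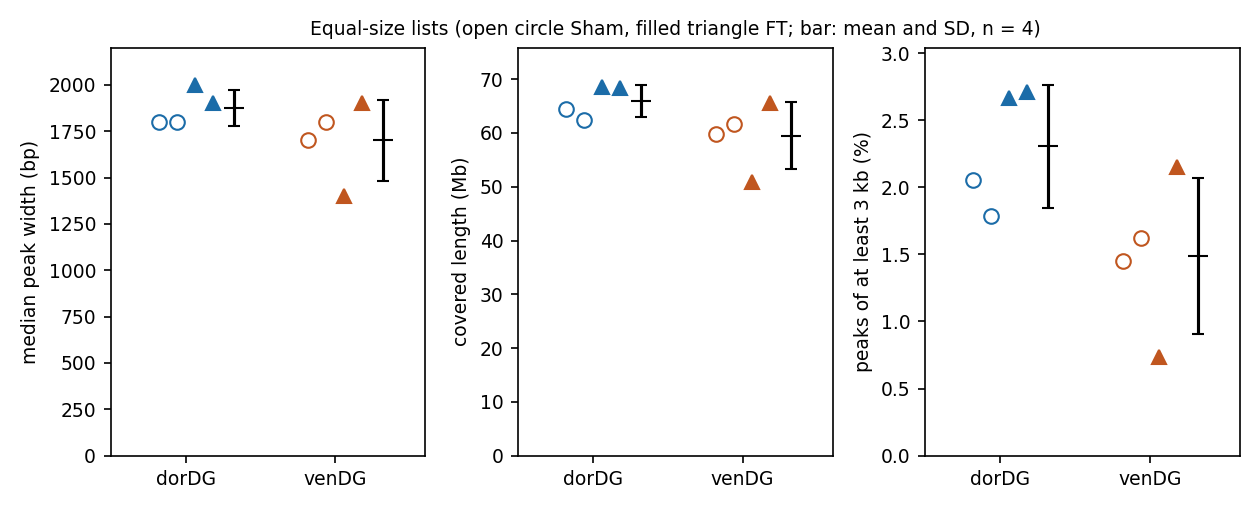
Median peak width (bp), covered length (Mb) and share of peaks of at least 3 kb (%) in the equal-size lists of the 8 libraries, with open circles for Sham, filled triangles for FT and bars for mean and SD (n = 4). The lowest point in each panel is venDG FT replicate 1, at 1400 bp, 51.0 Mb and 0.733%.

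Among sites acetylated in both subregions, rank differed widely. Elements, formed by joining all bases that peaks of 2 or more of the 8 lists covered, numbered 43861, and 22265 of them had a peak in all 8. The rank of the best peak in each was compared on the log2 scale (limma with trend, average of Sham and FT, Benjamini-Hochberg adjustment over 22265 elements). At an adjusted p under 0.05, 2555 elements (11.5%) ranked better in dorDG and 2165 (9.72%) ranked better in venDG, 4720 (21.2%) together, with a median difference over all elements of -0.14. Differences toward dorDG were larger, with 1346 of 2555 (52.7%) at least 2-fold in rank, against 398 of 2165 (18.4%) toward venDG. The 4 dorDG ranks did not overlap the 4 venDG ranks in 2027 elements (9.1%) with better dorDG ranks and in 1988 (8.93%) with better venDG ranks, and in 2405 and 2929 without venDG FT replicate 1, so the direction with more such elements turned. With the replicate pairs as a block 3118 elements were called toward dorDG and 3388 toward venDG, and on uncut lists 3049 and 3074, so that neither direction can be called the more frequent. Without venDG FT replicate 1 the fit called 2101 and 1595 elements, and without dorDG FT replicate 1, dorDG FT replicate 2 or dorDG Sham replicate 2 it called 1723 and 780, 1721 and 849, and 1844 and 1267.

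The element with the lowest p toward dorDG lay on chromosome 3 from 18292111 to 18294641. It ranked 4974 and 3219.5 in dorDG Sham, 1774 and 1335 in dorDG FT, 24055.5 and 32460 in venDG Sham, and 28236.5 and 22806 in venDG FT. Every dorsal rank was therefore better than every ventral rank (log2 difference 3.42 ± 0.23 SE, adjusted p = 5.1e-06). Second was chromosome 2 from 231687459 to 231690058, which ranked 5025, 3500, 1200 and 1641 in the dorDG libraries (Sham replicates, then FT replicates) and 23495, 18252.5, 25537 and 19589.5 in the venDG libraries, a log2 difference of 3.15 ± 0.23 SE. On chromosome 7 from 101583928 to 101587001 the ranks were 4269, 3816, 2129 and 2014 in dorDG and 32746, 19701.5, 16829 and 16606 in venDG. This element had no peak in any of the 86 equal-size lists of other regions. It was thus strong in dorDG, weak in venDG and not found elsewhere at that list length.

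On the log2 scale the largest of these differences was found on chromosome 1 from 233447210 to 233449814. In dorDG this was among the very best peaks, at rank 412 and 109 in Sham and 30 and 45 in FT. In venDG it ranked 4878, 3108, 3848 and 3114, so that the log2 difference was 5.38 ± 0.43 SE (adjusted p = 7.7e-06). The order depends on the scale: with ranks turned into normal scores its difference was the smallest of the 6 dorDG elements, at 1.67 against 1.95 to 2.91. Elsewhere it was a weak peak, present in 51 of 86 other libraries at a median rank of 19579. On chromosome 3 from 99683111 to 99685741 the ranks were 4310, 3401, 1667 and 1978 in dorDG and 32078.5, 19027, 15624 and 20134 in venDG, and 7 other libraries had a peak. On chromosome 6 from 133528932 to 133532380 they were 3958.5, 4308.5, 3032 and 2551 against 23131.5, 21027.5, 19806 and 16019.5, with a peak in 80 other libraries.

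Toward venDG, the lowest p was that of chromosome 6 from 88783213 to 88786231. It ranked 30411, 27590.5, 20937 and 25016.5 in dorDG and 4786, 2584, 2102 and 2260 in venDG (log2 difference -3.22 ± 0.23 SE, adjusted p = 6.1e-06). Its best rank elsewhere, 3452, was in CMA. A pair of neighbouring elements on chromosome 2, from 122039002 to 122041101 and from 122046802 to 122048801, ranked better in venDG, with log2 differences of -2.40 ± 0.23 SE and -2.17 ± 0.19 SE. The first ranked 10718, 13745, 16393 and 13682.5 in dorDG and 1719, 2363, 3353 and 3133 in venDG, and the second 18442.5, 20664, 24967.5 and 23245 against 5488, 4778.5, 4753 and 4360. Both had a peak in 85 of 86 other libraries, where the first had a median rank of 1029.5 and the second of 2705.5. Both were therefore better placed in the typical other library than in either subregion.

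The 3 remaining elements also ranked better in venDG, but in other regions they were not placed better than in venDG as a whole. Chromosome 16 from 64460756 to 64463471 ranked 30642.5, 21966.5, 17668.5 and 23938.5 in dorDG and 4368, 5626, 3615 and 3927 in venDG, with a median of 5552 over 85 other libraries. Chromosome 18 from 73241616 to 73243926 ranked 24700, 21828, 24931.5 and 24749 in dorDG against 8298, 5566, 4423 and 4488.5, with a median of 10030.5 over 79 other libraries. Chromosome 10 from 106993214 to 106995401 ranked 17503.5, 15629, 20498 and 21646.5 against 3673, 2826, 5504.5 and 2709, with a median of 4860 over 85 other libraries. In all 12 elements the groups did not overlap, and the highest adjusted p under any alternative that held the element was 0.000384.

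**Figure D4:**
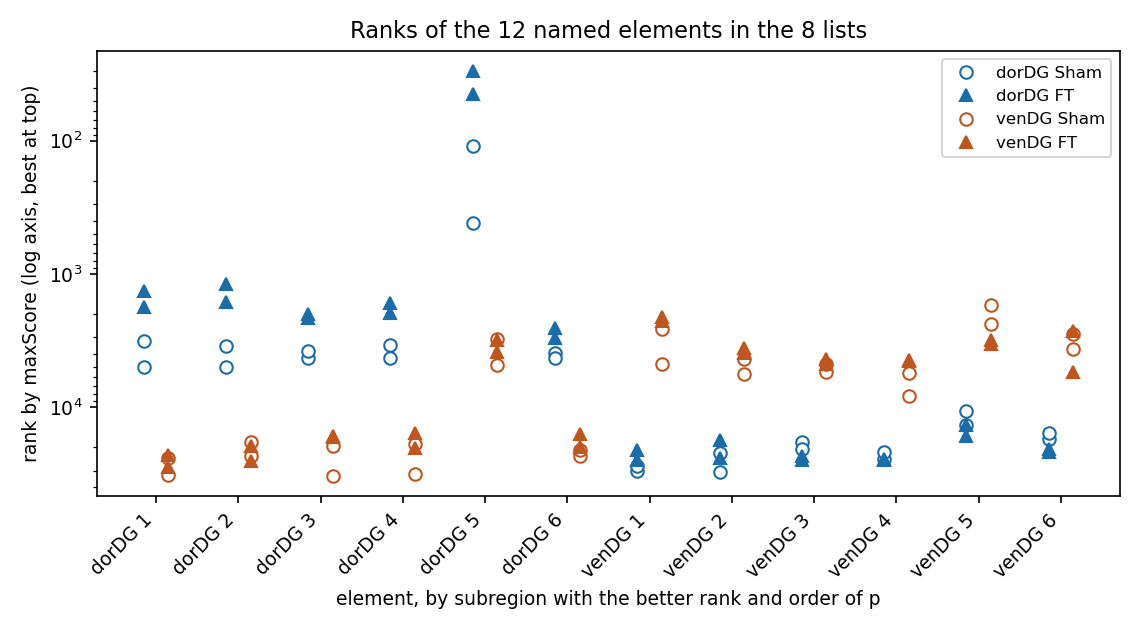
Rank by maxScore (log axis, best at top) of the 12 elements with the lowest p, 6 toward dorDG and 6 toward venDG in the order of p, in each of the 8 equal-size lists. Circles are Sham and triangles FT, and no dorDG value overlaps a venDG value within an element.

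Called elements differed in their spread over the brain in the same way as the windows. Those better ranked in dorDG had a peak in a median of 37 of the 86 other libraries, and those better ranked in venDG in 83, against 82 for all elements. By region, 46.5% of the first and 90.0% of the second had a peak on average, against 82.2% of all elements, and the order was the same in 23 of 23 regions. The gap was widest in Snt (solitary tract nucleus), with 36.4% and 92.7%. Outside HB it was narrowest in CMA, with 67.1% and 99.1%.

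Width within elements differed at few sites. The fit on log2 covered bp called 139 elements (0.624%) wider in dorDG and 9 (0.0404%) wider in venDG (limma, adjusted p under 0.05), 148 (0.665%) together, and 535 and 25 with the replicate pairs as a block. No overlap was found for 1910 elements (8.58%) wider in dorDG and 113 (0.508%) wider in venDG, and for 1929 and 596 without venDG FT replicate 1. The number of calls rests on single libraries: it was 0 in both directions without dorDG FT replicate 1, without dorDG FT replicate 2 or without dorDG Sham replicate 2, 7 and 0 without dorDG Sham replicate 1, 1 and 0 without venDG Sham replicate 1, 336 and 32 without venDG FT replicate 1, and 8364 and 85 without venDG FT replicate 2. Of the 148 calls, 100 were also called in rank in the same direction.

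The clearest dorsal case lay on chromosome 3 from 11052511 to 11055345, covered by 2600, 2700, 2800 and 2831 bp in dorDG and by 1700, 1800, 1838 and 1900 bp in venDG (log2 difference 0.60 ± 0.04 SE, adjusted p = 0.01). Second was chromosome 10 from 16648602 to 16653101, with 4100, 3800, 4278 and 4200 bp against 2600, 2592, 2400 and 2600 bp. Chromosome 1 from 6714215 to 6717058 and chromosome 7 from 117337802 to 117341201 followed, by 0.53 ± 0.04 SE and 0.64 ± 0.05 SE on the log2 scale. Toward venDG, chromosome 7 from 77603202 to 77605801 was covered by 1700, 1800, 2000 and 2100 bp in dorDG and by 2500, 2500, 2500 and 2498 bp in venDG. Chromosome 8 from 114386830 to 114389136 and chromosome 1 from 93895449 to 93898343 were wider in venDG, with log2 differences of -0.45 and -0.39. The element of chromosome 6 from 88783213 to 88786231, which had the lowest p toward venDG in rank, was also wider in venDG. It was covered by 2700, 2800, 2700 and 2886 bp there, against 2200, 2000, 2300 and 2368 bp in dorDG. Each of these 8 lost its call in some of the alternatives, with adjusted p up to 0.402.

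Most measures of the size of the dorsal to ventral difference were larger in FT than in Sham, but no single site was shown to change. Of the 4720 elements called in rank, 4707 differed in the same direction in Sham and in FT, which the choice of elements by the average of both treatments favours. The difference was larger in FT for 2166 of the 2555 dorsal elements (84.8%) and 1450 of the 2165 ventral elements (67.0%), against 66.0% of all 22265 elements. Among the dorsal elements its median size was 0.83 in Sham and 1.25 in FT on the log2 scale, and among the ventral elements 0.67 and 0.86. Over all elements the median size was 0.30 in Sham and 0.45 in FT. Without venDG FT replicate 1 it was 0.29 and 0.46, and among the elements called in that fit 0.83 and 1.15. The FT difference then rested on 1 venDG library, which by itself can enlarge absolute differences. Over all elements the medians were 0.36 and 0.46 without venDG Sham replicate 1, and 0.37 and 0.45 without venDG Sham replicate 2.

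The same order was seen in both replicates. The median absolute log2 ratio of dorDG to venDG ranks over the shared elements was 0.37 and 0.38 in Sham replicates 1 and 2 and 0.51 and 0.46 in FT replicates 1 and 2. Replicates of the same subregion lay 0.32 (dorDG) and 0.38 (venDG) apart in Sham, and 0.20 and 0.32 apart in FT. In Sham the dorsal to ventral distance was thus about that between ventral replicates, while in FT it exceeded both replicate distances. With 2 values against 2 no two-sided exact p below 0.33 can be reached, so this order has no test.

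Taken alone, Sham gave 492 elements better ranked in dorDG (2.21%) and 198 in venDG (0.889%), 3.1% in all, and FT gave 2061 (9.26%) and 1381 (6.2%), 15.5% in all. In width, Sham alone gave 0 and FT alone 6 elements (0.0269%), all wider in dorDG. The counts rest on single libraries: FT gave 898 and 288 without venDG FT replicate 1, 688 and 70 without dorDG FT replicate 1, and 729 and 104 without dorDG FT replicate 2, while Sham gave 13 and 3 without dorDG Sham replicate 2 and 94 and 122 without venDG Sham replicate 1. The Sham and FT counts come from the same fit, which shares its estimate of spread between the treatments, and they do not test the change. The test of the change itself, the FT difference minus the Sham difference, called 0 of 22265 elements by limma, with 1301 at an unadjusted p under 0.05 and a lowest adjusted p of 0.807. For width it also called 0, with 304 at an unadjusted p under 0.05 and a lowest adjusted p of 0.99, but it called 2956 toward dorDG and 5 toward venDG without venDG FT replicate 2. That last fit kept only venDG FT replicate 1, the library with the narrowest peaks, for venDG FT. Its median width change over elements was 0.19 on the log2 scale, against 0.086 in the main fit. The part of that library in these calls was not tested. With all 8 libraries, no single element was therefore shown to have widened or narrowed.

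**Figure D5:**
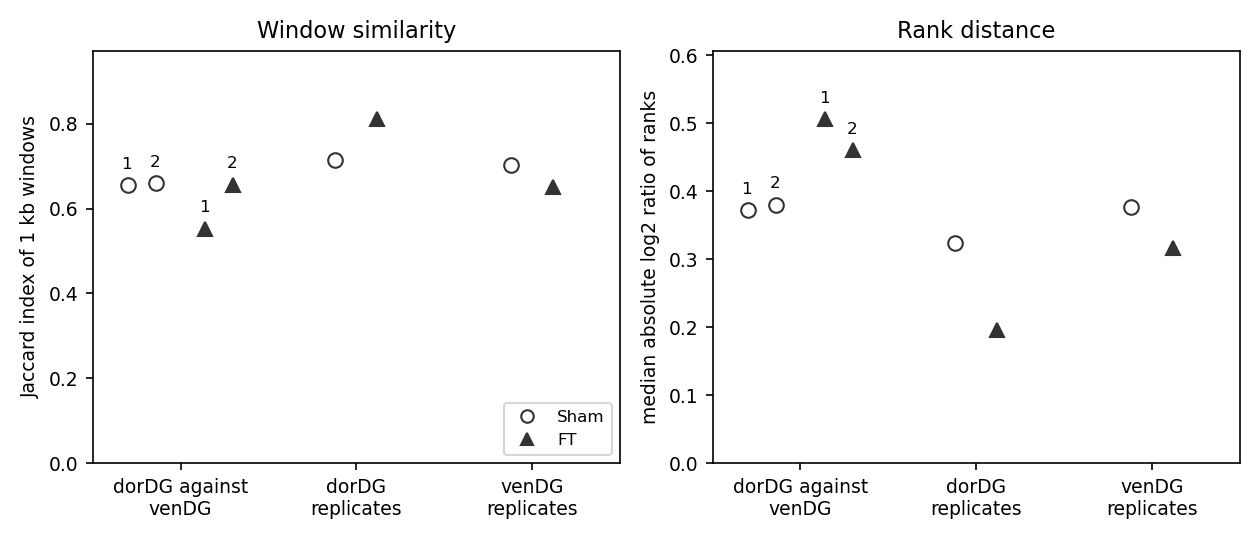
Jaccard index of 1 kb windows (left) and median absolute log2 ratio of ranks over shared elements (right) for dorDG against venDG within a replicate number (numbers beside the points) and between replicates of a subregion, in Sham (open circles) and FT (triangles). The rank distance between subregions is larger in both FT replicates (0.51 and 0.46) than in both Sham replicates (0.37 and 0.38), whereas the Jaccard index is far lower in FT replicate 1 (0.553) and nearly level in FT replicate 2 (0.656 against 0.660 in Sham).

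Window occupancy gave a less even answer. In Sham, 4911 windows (5.66%) were occupied in both dorDG and neither venDG library, and 3237 (3.73%) the reverse, 9.4% in all. In FT there were 10345 (11.6%) and 3335 (3.75%), 15.4% in all. The total was higher in FT by 0.75 on the log2 scale. With 1 venDG library and both dorDG libraries kept per treatment the 4 possible combinations gave 0.40 to 0.79. The lower values were those with venDG FT replicate 2, so in these counts a surplus remained without the short library. It was then no longer dorsal alone: with venDG FT replicate 2 kept, FT had 11392 dorDG-higher and 9941 venDG-higher windows, against 8616 and 7563 in Sham with venDG Sham replicate 1 and 7326 and 8218 with venDG Sham replicate 2. With peak centres the windows numbered 2724 and 2505 in Sham and 4739 and 3304 in FT. Of the dorDG-higher windows, the 2444 found in both treatments were 49.8% of the Sham set and 23.6% of the FT set. Of the venDG-higher windows, the 742 found in both were 22.9% of the Sham set and 22.2% of the FT set. Counts that ask for both dorDG libraries also rise when these are more alike, and their Jaccard index was 0.810 in FT and 0.714 in Sham. Between single libraries of a replicate number, Sham had 15289 and 13161 windows in dorDG alone and 10648 and 12311 in venDG alone (replicates 1 and 2). By the same count FT had 25949 and 15249 in dorDG alone and 8437 and 12510 in venDG alone.

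The Jaccard index between dorDG and venDG was 0.655 and 0.660 in Sham replicates 1 and 2, and 0.553 and 0.656 in FT replicates 1 and 2. Similarity was thus clearly lower in FT in the replicate with the short venDG list and nearly level in the other, and the mean change of -0.0528 (exact permutation test, two-sided, p = 0.667) became -0.00124 without that library. FT lists also had stronger last peaks at the cut, except in venDG replicate 1, and the part of list quality in the wider difference was not tested.

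The sites with the lowest p for a change with FT show both directions. On chromosome X from 107300952 to 107306037 the ranks were 9206 and 8364.5 in dorDG Sham, 25354.5 and 25199 in dorDG FT, 12748 and 17246.5 in venDG Sham, and 14676 and 12078.5 in venDG FT. The dorsal rank was better in Sham and the ventral rank in FT, and the change was -1.68 ± 0.36 SE on the log2 scale (limma, unadjusted p = 0.000311, adjusted p = 0.807). Chromosome 11 from 89456672 to 89459801 had ranks of 3388.5 and 3616 in dorDG Sham against 12454 and 10099.5 in dorDG FT, while venDG stood between 4712 and 6655. Chromosome 8 from 48873606 to 48875272 followed with -1.69 ± 0.38 SE.

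In the other direction, chromosome 18 from 71976377 to 71979576 ranked 31285 and 31685.5 in dorDG Sham, 14481.5 and 14513.5 in dorDG FT, and between 29794.5 and 32065.5 in the 4 venDG lists. Only the dorDG FT libraries stood out there, and the change was 1.12 ± 0.28 SE. Chromosome 10 from 94076994 to 94079038 and chromosome 14 from 86934748 to 86937817 followed with 1.25 ± 0.31 SE and 1.35 ± 0.35 SE. For width, the lowest p was that of chromosome 7 from 75950902 to 75954727, covered by 2400 and 2400 bp in dorDG Sham, 3700 and 3619 bp in dorDG FT and 2200 to 2402 bp in venDG. Chromosome 4 from 209934526 to 209938227 and chromosome 8 from 23019273 to 23022572 changed by 0.66 ± 0.10 SE and 0.77 ± 0.12 SE toward dorDG, and chromosome 13 from 55951852 to 55955765, chromosome 3 from 171204946 to 171207841 and chromosome 16 from 2938334 to 2941185 by -0.53 ± 0.10 SE, -0.54 ± 0.10 SE and -0.33 ± 0.07 SE. None of these 12 sites passed the adjustment over all elements. The width changes on chromosomes 7 and 4 turned slightly negative without either dorDG FT library, where the limits of the elements are redrawn, and that on chromosome 8 dropped to 0.16 without dorDG FT replicate 1 and 0.17 without dorDG FT replicate 2, so all 3 rest on those libraries.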

How the data were processed

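H3K27ac ChIP-seq peak lists of 8 dentate gyrus libraries were analysed, with 86 libraries of 23 other regions for comparison. Reads were aligned by the authors to Rn5 (Ensembl). The submitters' processing notes name BWA, and DFilter called peaks on each library separately; for both, the version is not given in the sources used here. The deposited −log10 p-value ran from 4 to 200. The deposited maxScore and the normalised tag count are scores that depend on the library, and the deposited false discovery rate was 0 percent throughout. Lists carry no counts, so depth is unknown and no counting interval was computed. The 4 input samples had no list.

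Chromosomes 1 to 20 and X were used. Lists were cut by maxScore to 34769 peaks. Occupied windows, elements, exact permutation tests and limma fits (version 3.58.1 in R 4.3.3; 4 group means, Benjamini-Hochberg threshold 0.05) are described with the results. Ranks entered as minus log2, so positive differences mean a better rank in dorDG. On data simulated with the real means and spreads the fits were tested for known changes. The study's methods imply that dorsal and ventral tissue of a replicate number came from the same pool of animals, and Sham and FT of a number were processed in parallel. The difference between replicates correlated between the subregions over windows at 0.0742 in Sham and 0.0202 in FT. Named sites are the 10 longest loci (ties by mean rank) and 3 densest 1 Mb stretches per direction, the 6 elements of lowest p for rank, 4 for width and 3 for each change with FT. The study's own test used read counts per peak, which the lists do not hold. Members and lists were chosen with earlier results of these data known. Alternatives were uncut lists, 10000 peaks, equal covered length, −log10 p of at least 6, 2 kb windows, any overlap, peak centres, normal scores, elements of at least 4 lists, the replicate block and leaving out each library. Marker genes could not be placed on Rn5 and were not used here.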

Additional observations from a re-analysis of the deposited data

Results flagged for a closer look

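Of 92 sets of 4 values examined, 8 had a sample far from the other 3, where chance gives about 1 in 20. For the element of chromosome 18 from 73241616 to 73243926, dorDG Sham replicate 2 ranked 21828, apart from the other dorDG libraries (gap over range 0.925). At the dorDG-only locus of chromosome 7 from 39658001 to 39661000, dorDG Sham replicate 1 ranked 15809.5 (0.906), and at that of chromosome 2 from 99688001 to 99691000 it ranked 27026.5 (0.916). The other 5 concern covered bp: venDG FT replicate 1 with 2400 bp at chromosome 10 from 16648602 to 16653101 (0.96), venDG FT replicate 2 with 1900 bp at chromosome 1 from 6714215 to 6717058 (1), with 2498 bp at chromosome 7 from 77603202 to 77605801 (1) and with 2542 bp at chromosome 1 from 93895449 to 93898343 (1), and dorDG FT replicate 2 with 2200 bp at the last of these (0.835). A ratio of 1 arises where the other 3 libraries had equal values.

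In 22 windows both dorDG and neither venDG library were occupied in Sham and the reverse held in FT, and in 30 windows the opposite exchange was found. The difference between treatments was not tested for these windows.

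The list of dorDG Sham replicate 1 held 348 peaks on unplaced scaffolds, where the other 7 lists had 0, and these peaks entered no comparison.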

How the results depend on the processing

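DorDG-only windows outnumbered venDG-only windows under every alternative run, least so at equal covered length (1767 against 1082) and with peak centres (1026 against 591). DorDG-only windows numbered 829 with 10000 peaks, 1248 with 2 kb windows and 1026 with peak centres, and 2555 to 4490 when 1 library was left out. VenDG-only windows numbered 451 on uncut lists, 329 with 10000 peaks, 320 with 2 kb windows and 1430 with any overlap, and 848 to 1413 without 1 library. The excess of same-subregion similarity was 0.0635 to 0.0971 without 1 library, and its exact permutation p rose to 0.125 under the replicate block (excess 0.0829). The other library measures had no call before the block, and 4 pairs cannot give an exact permutation p below 0.125. Rank calls numbered 577 with 10000 peaks, 3058 at equal covered length, 2910 at the stricter p-value and 9496 with elements of at least 4 lists, and 2503 to 5387 without 1 library. With normal scores 2440 elements were called toward dorDG and 1508 toward venDG, but the order turned with the replicate block (3118 and 3388) and on uncut lists (3049 and 3074). Width calls numbered 30 with 10000 peaks, 3421 with elements of at least 4 lists and 560 with the replicate block, and 0 to 8449 without 1 library. The test of a change with FT called 0 to 1 elements in rank and 0 to 2961 in width without 1 library, the highest without venDG FT replicate 2, and 6 (10000 peaks) and 28 (elements of at least 4 lists) in width. The log2 ratio of FT to Sham windows ran from -0.242 to 1.72 without 1 library; it is negative when a Sham library is left out, since a single library then defines a Sham arm. Covered length was equal by construction at equal covered length (difference -0.000875 Mb). The width change with FT ran from -0.065 to 0.641 at chromosome 7 from 75950902 to 75954727, and from -0.0738 to 0.73 at chromosome 4 from 209934526 to 209938227, without 1 library, with values of -0.065 and -0.0738 without dorDG FT replicate 1 and of -0.015 and -0.02 without dorDG FT replicate 2. Matched combinations of 1 venDG library per treatment were added after seeing the data. Unknown depth limits all list comparisons.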
